A study of Mus musculus with 3 samples.

Results

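The collagen genes other than Col4a1 and Col4a2 were followed in mouse embryoid bodies that lacked Hopx. They were taken by name, as every gene whose symbol is Col, a number, the letter a and a number, with the chains α1 and α2 of type IV left out. The gene table holds 42 such genes, all 42 had a probe on the array, and 28 of the 42 were bright enough to be tested, among 19803 genes tested in all. The other 14 are named where their class is described.

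The study set Hopx-/- embryoid bodies (null) against Hopx+/- embryoid bodies (heterozygous) at day 8 of cardiac differentiation, on 3 arrays of the Agilent 2-colour kind, each carrying RNA of both genotypes. Hopx is a small homeodomain protein of heart and progenitor cells, and the series is about its role in commitment to muscle. Both genotypes were embryonic stem cell lines derived from blastocysts and kept on feeder fibroblasts. They were aggregated in hanging drops, then plated on gelatin, which is denatured collagen, in a medium with VEGF, bFGF, FGF10 and 1 mM ascorbic acid. No wild-type culture is among the samples, so every value is read against cells with a working copy of Hopx. The labels number the arrays as replicates 1 to 3 and do not give how many lines or separate cultures they came from. The p-values therefore rest only on the spread between these arrays, which may be partly technical. In limma that spread is partly shared between probes, so it is not that of each gene alone.

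Collagens are extracellular proteins built of chains that wind into a triple helix. Fibrillar collagens (types I, II, III, V, XI, XXIV and XXVII) assemble into banded fibrils, network-forming collagens (types IV, VIII and X) into sheets such as basement membranes, and the fibril-associated collagens with interrupted triple helices (FACIT) decorate the surface of fibrils. Inside the cell, new chains are hydroxylated on proline and lysine by enzymes that need ascorbate, folded with the help of chaperones and exported, and outside it they are trimmed and crosslinked. Several types need more than 1 kind of chain, so genes that encode partner chains are set side by side below.

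Each value is the log2 ratio of the null over the heterozygous signal. It is positive where the null cells had more of the transcript, and 1 stands for a 2-fold difference. The labels place the null RNA in the Cy5 channel on all 3 arrays, but the Cy5 over Cy3 ratios of replicate 3 correlated with those of replicates 1 and 2 at -0.90 over all probes kept, while replicates 1 and 2 correlated with each other at 0.94. The authors' deposited value table holds replicate 3 turned, and replicate 3 was turned here as well. The labels alone do not settle its direction, and with replicate 3 read as labelled limma called 0 collagen genes, 0 also at an unadjusted p under 0.05. Hopx itself had log2 ratios of -2.98, -2.97 and -3.45 on the 3 arrays, so it was lower in the RNA taken as null on each (mean -3.13, moderated SE 0.11, adjusted p = 2.84e-07). In the text, higher, lower, rose and fell stand for an adjusted p under 0.05 in limma, with Benjamini-Hochberg adjustment over all probes kept.

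Of the 28 collagen genes tested, 10 rose, 11 fell and 7 did not pass the test. Col24a1 and Col25a1 entered only through the null channel, which was well above background on all 3 arrays. With both channels required to be so, 26 collagen genes were tested, 8 rose and 11 fell, with a median of -0.11. Differences between the genotypes were widespread, with 60.3% of all genes tested called, 30.2% higher and 30.1% lower, so the 75% of collagen genes called has to be read against that share. The counts of each class and list below have to be read against the same shares. The median over the 28 was -0.025, against 0.0034 over all genes tested. The values ran from -1.40 for Col20a1 to 1.81 for Col14a1. Past a 2-fold difference, 2 rose (Col14a1 and Col1a2) and 1 fell (Col20a1). The ratio had the same sign on all 3 arrays for 21 of the 28, a share near the 75.4% of all genes tested. The balance of rises and falls depended on the scaling: centring each array on its median without loess gave 12 higher and 6 lower, with a median of 0.19 over the collagen genes where all genes tested had a median of 0.23. The tissue was not sorted, so more cells of a type and more RNA per cell cannot be told apart for any of these genes.

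**Figure D1:**
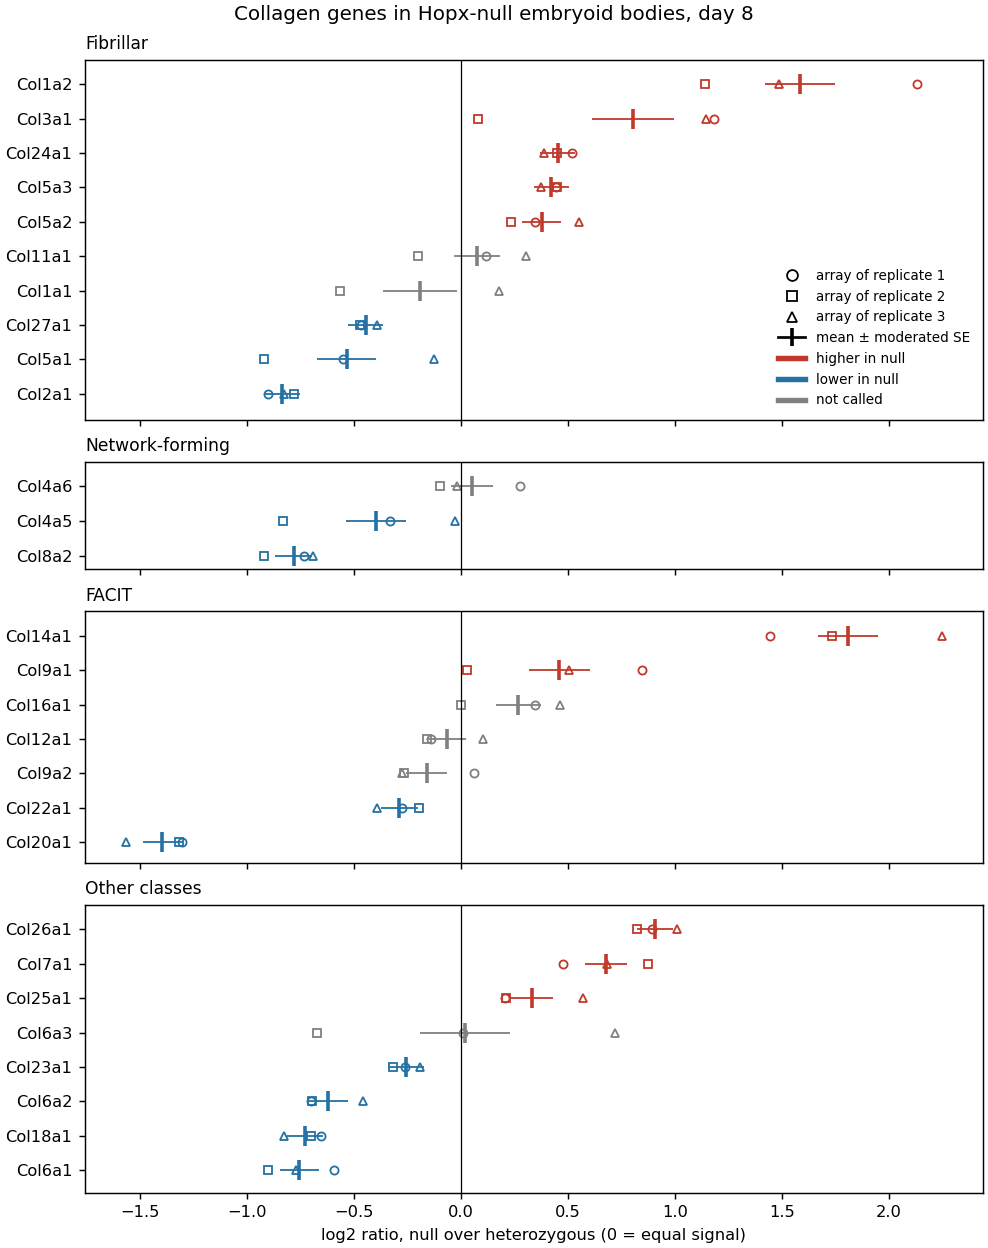
Log2 ratio of null over heterozygous signal (horizontal axis) for the 28 collagen genes tested, by class. Open symbols are the 3 arrays, the vertical tick is the mean and the bar its moderated SE; red genes rose, blue genes fell and grey genes did not pass the test. Col14a1 and Col1a2 lie farthest to the right at 1.81 and 1.59 and Col20a1 farthest to the left at -1.40, and the square of replicate 2 is often the leftmost symbol.

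Among the fibrillar collagens, 10 of 11 genes were tested, of which 5 rose, 3 fell and 2 did not pass, with a median of 0.22. Col1a2, the α2 chain of type I collagen, which is the main fibril of connective tissue, had the largest ratio of the class, except with the scanner's own processed signals (1.58, below the 2.01 of Col24a1). Its normalized log2 signal was 15.2, 14.7 and 15.1 in the null channel of replicates 1, 2 and 3 and 13.1, 13.6 and 13.6 in the heterozygous channel. The groups did not overlap, and the log2 ratios of 2.13, 1.14 and 1.49 gave a mean of 1.59 (moderated SE 0.16, n = 3, adjusted p = 5.75e-05), a 3.00-fold rise. Col3a1, the single chain of type III collagen found with type I in pliable tissue, rose by 0.80 (SE 0.19, adjusted p = 0.00656). Its ratios were 1.18, 0.081 and 1.15, so the rise was carried by replicates 1 and 3 and replicate 2 was near equal signal.

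The other rises depended more on the processing. Col24a1, a minor fibrillar chain, rose by 0.45 (SE 0.08), although its heterozygous signal was well above background on only 1 array. Col5a3 rose by 0.42 (SE 0.08) and Col5a2 by 0.38 (SE 0.09), both chains of type V collagen, which sits inside type I fibrils and sets their width. With the scanner's processed signals, Col24a1, Col5a3 and Col5a2 were at 2.01, 1.41 and 0.82. In the authors' deposited value table they were at 0.26, 0.25 and 0.26 and none passed limma's test (adjusted p = 0.0778, 0.148 and 0.117). In the other direction, Col2a1, the chain of cartilage and notochord fibrils, had ratios of -0.90, -0.78 and -0.83 and a mean of -0.84 (SE 0.08, adjusted p = 4.49e-05), a 1.79-fold fall. Its log2 signal was 10.1 to 10.3 in the null and 10.9 to 11.2 in the heterozygous channel, without overlap. Col27a1, a fibrillar chain of developing cartilage, fell by 0.45 (SE 0.08) with ratios of -0.47, -0.47 and -0.39. Col5a1, the α1 chain of type V, fell by 0.53 (SE 0.14, adjusted p = 0.00936), but unevenly, at -0.55, -0.92 and -0.12. Its call was lost without replicate 2 (-0.34, adjusted p = 0.063) and with median centring in place of loess (-0.11, adjusted p = 0.621).

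Neither Col11a1, a chain of type XI in cartilage fibrils (0.073, SE 0.11), nor Col1a1, the α1 chain of type I, passed the test. Col1a1 had a single spot on each array, and that of replicate 1 was marked an outlier by the scanner software and left out. Its value of -0.19 (SE 0.17, adjusted p = 0.365) rests on -0.56 in replicate 2 and 0.18 in replicate 3, which differ in sign, and the spot left out reads 0.29. Without replicate 3 a single array is left, and a call made then takes its spread wholly from other probes and is no test of Col1a1. Col11a2 was too dim to test.

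The plot of signals by channel shows how the largest changes arose on each array.

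**Figure D2:**
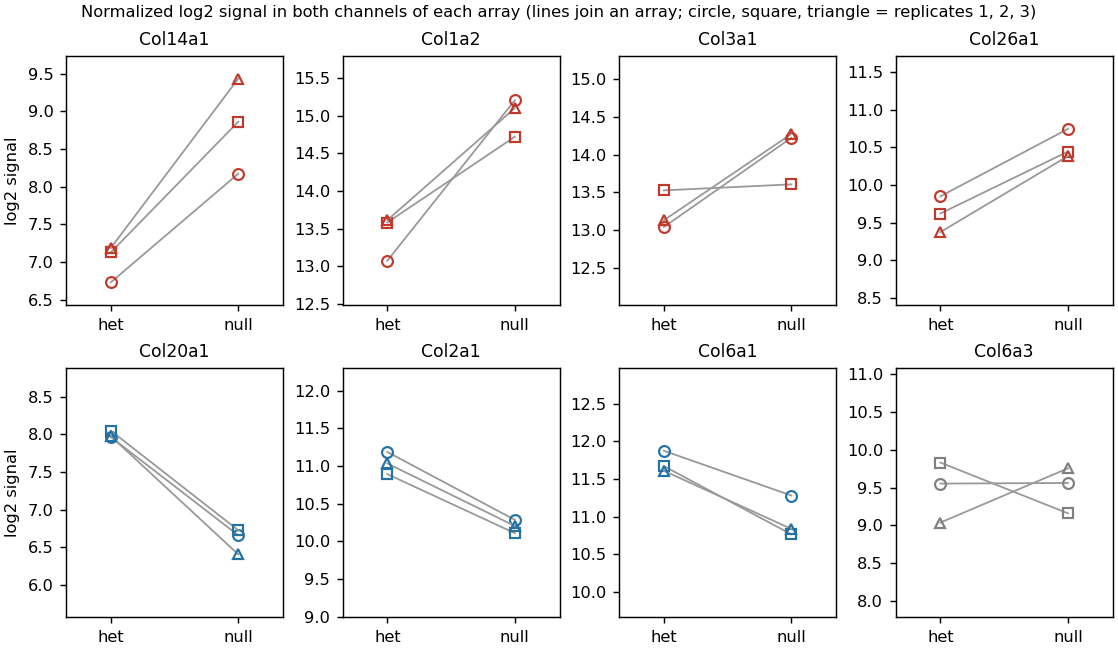
Normalized log2 signal (vertical axis, the same span in each panel) in the heterozygous (het) and null channel for 8 collagen genes. A line joins the channels of an array, with a circle, square and triangle for replicates 1, 2 and 3. All lines rise for Col14a1, Col1a2 and Col26a1 and all fall for Col20a1, Col2a1 and Col6a1, whereas Col3a1 is near level in replicate 2 (0.081) and Col6a3 goes down in replicate 2 (-0.67) and up in replicate 3 (0.72).

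Promoter windows of the fibrillar genes with the most to compare are shown as the 150 bases before the RefSeq start (build GRCm38.p6), 5′ to 3′ on the strand of the gene, with each CCAAT box and each GC box (GGGCGG), in either orientation, in capitals. Col1a2 and Col3a1, which both rose and often build the same fibrils, are set beside Col5a3 and Col5a1, type V chains that moved in opposite directions.
Col1a2, chr6:4505468-4505617, plus strand: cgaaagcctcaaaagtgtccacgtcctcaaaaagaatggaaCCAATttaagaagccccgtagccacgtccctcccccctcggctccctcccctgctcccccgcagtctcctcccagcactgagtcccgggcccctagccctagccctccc
Col3a1, chr1:45311388-45311537, plus strand: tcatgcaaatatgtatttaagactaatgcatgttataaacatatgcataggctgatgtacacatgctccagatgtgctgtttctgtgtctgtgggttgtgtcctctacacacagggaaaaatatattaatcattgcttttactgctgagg
Col5a3, chr9:20815068-20815217, minus strand: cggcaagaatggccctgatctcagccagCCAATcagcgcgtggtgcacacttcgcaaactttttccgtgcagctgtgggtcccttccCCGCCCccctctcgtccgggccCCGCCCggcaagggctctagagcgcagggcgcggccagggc
Col5a1, chr2:27886275-27886424, plus strand: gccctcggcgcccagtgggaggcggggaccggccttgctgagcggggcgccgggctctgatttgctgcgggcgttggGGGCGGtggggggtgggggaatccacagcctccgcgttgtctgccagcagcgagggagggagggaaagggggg
In these windows Col1a2 holds a CCAAT box at position -109 from the start and no GC box, Col3a1 holds neither, Col5a3 holds both and Col5a1 holds a GC box only.

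Over the whole family, 33 of the 42 genes had a promoter in the RefSeq table, and Col1a1, Col2a1 and Col14a1 were among those without. A CCAAT box, in either orientation, lay in the windows of 3 of the 7 genes that rose, 0 of the 9 that fell, 2 of the 5 not called and 1 of the 12 not tested, against 27.7% of 27025 genes in the table. A GC box lay in 3 of the 7 that rose and 7 of the 9 that fell, against 31.3% of all genes, and in 54.5% of all 33 collagen genes. TATAAA within 40 bases of the start, on the gene's strand, was found in 1 of the 33, a gene that was not tested, against 2.78% of all genes. These are letter matches in short windows and do not show that a factor binds there, and a gene with several listed starts was counted where any of its windows had the match.

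Of 7 network-forming collagens, 3 were tested, 2 fell and 1 did not pass, with a median of -0.40, and limma called 0 higher, 0 also at an unadjusted p under 0.05. Col8a2, a chain of the type VIII networks found under endothelia such as that of the cornea, fell by 0.78 (SE 0.09, adjusted p = 9.57e-05), with ratios of -0.74, -0.92 and -0.69 and log2 signals of 7.1 to 7.4 in the null against 7.8 to 8.1 in the heterozygous channel. Col4a5, a type IV chain of kidney and other specialised basement membranes, fell by 0.40 (SE 0.14, adjusted p = 0.0358), with ratios of -0.33, -0.83 and -0.027. It no longer passed when replicate 1 was left out (-0.43, adjusted p = 0.058) or replicate 2 (-0.18, adjusted p = 0.276), and was at -0.036 with median centring in place of loess (adjusted p = 0.884). Col4a6, its partner in smooth muscle basement membrane, had 0.27, -0.099 and -0.019 and a mean of 0.052 (SE 0.10, adjusted p = 0.672). With median centring in place of loess Col4a6 was called higher (0.41, adjusted p = 0.0267), so the absence of a rise in this class depends on the scaling. For comparison, the general basement membrane chains Col4a1 and Col4a2 were at -1.76 and -1.61 on the same arrays, each with an SE of 0.08. Col4a3, Col4a4, Col8a1 and Col10a1 were too dim to test.

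Col4a5 and Col4a6 are transcribed away from each other from neighbouring starts on the X chromosome, and their windows are shown for that reason, with the same boxes in capitals.
Col4a5, chrX:141475269-141475418, plus strand: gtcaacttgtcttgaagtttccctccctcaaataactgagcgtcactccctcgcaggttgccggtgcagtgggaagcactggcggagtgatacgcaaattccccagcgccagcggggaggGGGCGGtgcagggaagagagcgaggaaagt
Col4a6, chrX:141474077-141474226, minus strand: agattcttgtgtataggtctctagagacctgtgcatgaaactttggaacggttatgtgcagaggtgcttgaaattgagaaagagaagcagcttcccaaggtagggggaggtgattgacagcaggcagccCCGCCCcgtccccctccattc
Each window holds a GC box and neither holds a CCAAT box. On all 3 arrays the ratio of Col4a6 was above that of Col4a5, by 0.61, 0.74 and 0.0077.

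Of 9 FACIT genes 7 were tested, of which 2 rose, 2 fell and 3 did not pass, with a median of -0.067. The rises and falls, 28.6% each, lie near the 30.2% and 30.1% of all genes tested. Col14a1, which binds fibrils of type I collagen at their surface, had log2 signals of 8.17, 8.86 and 9.43 in the null channel and 6.73, 7.13 and 7.19 in the heterozygous channel. All null values lay above all heterozygous ones, and the ratios of 1.44, 1.73 and 2.25 gave 1.81 (SE 0.14, adjusted p = 1.21e-05), a 3.50-fold rise. Its other tested probe, which is dimmer, read 0.54, 0.25 and 0.34, and the mean over both probes was 1.09, so the size of the rise differs between probes while the direction does not. Col14a1 ranked first among the collagen genes as reported, but without replicate 3 it was at 1.59 and Col1a2 at 1.63, and with median centring both were at 2.01.

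Col20a1, a fibril-associated chain, had the lowest ratio. Its signals were 6.66, 6.73 and 6.41 in the null channel and 7.96, 8.05 and 7.97 in the heterozygous channel, with no overlap. The ratios of -1.30, -1.32 and -1.57 gave -1.40 (SE 0.09, adjusted p = 4.58e-06), a 2.64-fold fall, and its other probe read -1.68, -1.80 and -1.89. Col9a1, a chain of the type IX collagen that coats cartilage fibrils, rose by 0.46 (SE 0.14, adjusted p = 0.0206), but its ratios were 0.85, 0.027 and 0.50 and the call was lost without replicate 1 (0.27, adjusted p = 0.136) and in the authors' deposited value table (0.41, adjusted p = 0.0608). Col22a1, known from the junction of muscle and tendon, fell by 0.29 (SE 0.09, adjusted p = 0.0174), a call lost without replicate 1 (-0.30, adjusted p = 0.0652) and without replicate 3 (-0.24, adjusted p = 0.0505), and at -0.011 with median centring (adjusted p = 0.942).

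The FACIT genes that did not pass were Col16a1 at 0.27 (adjusted p = 0.0539), Col12a1 at -0.067 and Col9a2 at -0.16. Col16a1, found on fibrils and in basement membrane zones, was at 0.35, -0.0023 and 0.46. It was called higher without replicate 2 (0.40, adjusted p = 0.0185) and with median centring (0.64, adjusted p = 0.00574). Its other tested probe, which is dimmer, read 0.14, 0.14 and 0.47 and just passed (0.25, adjusted p = 0.0499). Col12a1 coats type I fibrils as Col14a1 does, and at -0.14, -0.16 and 0.10 it stayed near equal signal. Col9a3 and Col19a1 were too dim to test.

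The remaining classes comprised 15 genes, of which 8 were tested, 3 rose, 4 fell and 1 did not pass, with a median of -0.12. Col26a1, a small secreted collagen first described in testis and ovary, had ratios of 0.89, 0.82 and 1.01 and rose by 0.91 (SE 0.08, adjusted p = 3.35e-05), a 1.88-fold difference. Its signals of 10.38 to 10.74 in the null channel lay above the 9.38 to 9.85 of the heterozygous channel. Col7a1, the chain of the anchoring fibrils that fasten epidermis to dermis, rose by 0.68 (SE 0.10, adjusted p = 0.000417), at 0.48, 0.88 and 0.68.

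The beaded filament collagen, type VI, which forms microfibrils around cells, fell in 2 of its 3 tested chains. Col6a1 had ratios of -0.59, -0.91 and -0.77, a mean of -0.76 (SE 0.09, adjusted p = 0.00015) and signals of 10.8 to 11.3 in the null against 11.6 to 11.9 in the heterozygous channel. Col6a2 fell by 0.62 (SE 0.09, adjusted p = 0.000412), at -0.70, -0.70 and -0.46. Col6a3 had the widest spread of all tested members, 0.0083, -0.67 and 0.72, and a mean of 0.018 (SE 0.21, adjusted p = 0.949), so the arrays leave its direction unsettled. Col6a4, Col6a5 and Col6a6 were too dim to test.

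Col6a1 and Col6a2 lie next to each other on chromosome 10 with no coding gene between them, on the same strand, and both fell. Their windows are shown for that pair, for Col6a2 from the first of its 2 listed starts.
Col6a1, chr10:76726045-76726194, minus strand: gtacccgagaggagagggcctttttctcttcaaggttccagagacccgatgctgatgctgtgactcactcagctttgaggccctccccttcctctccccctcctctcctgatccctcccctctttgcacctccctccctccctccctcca
Col6a2, chr10:76623405-76623554, minus strand: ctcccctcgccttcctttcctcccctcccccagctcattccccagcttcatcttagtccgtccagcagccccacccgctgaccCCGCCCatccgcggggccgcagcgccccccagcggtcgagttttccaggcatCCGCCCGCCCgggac
The Col6a1 window holds neither box. That of Col6a2 holds GC boxes and no CCAAT box, and the window of its other listed start, chr10:76623631-76623780, holds neither. Col18a1, 2 coding genes further along, fell as well, by 0.73 (SE 0.08, adjusted p = 0.000116), at -0.66, -0.70 and -0.83, and its other probe was at -0.66, -0.52 and -0.59. With median centring in place of loess its call was lost (-0.29, adjusted p = 0.0545). It encodes the multiplexin of basement membranes from which endostatin is cut. Col3a1 and Col5a2, neighbours on chromosome 1 with no coding gene between them, both rose.

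Of the transmembrane collagens, Col25a1, known from neurons, rose by 0.33 (SE 0.10, adjusted p = 0.0194) with heterozygous signal well above background on 2 arrays, a call lost without replicate 3 (0.21, adjusted p = 0.0786) and in the authors' deposited value table (0.20, adjusted p = 0.181). With the scanner's processed signals it was at 1.496. Col23a1 was called lower at -0.26 (SE 0.08, adjusted p = 0.0246) by its brightest probe, at -0.26, -0.32 and -0.19. Another probe of nearly the same brightness read the opposite, 0.39, 0.16 and 0.59. Its direction is therefore not settled, although it is counted above among the genes that fell. Col13a1, Col15a1, Col17a1 and Col28a1 were too dim to test. The 14 dim genes had mean log2 intensities from 5.96 to 6.35 and were well above background on at most 2 arrays in either channel, which bounds their signal and does not show that the genes are silent.

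Chains that build the same collagen type did not always move together. For type I, Col1a2 lay above Col1a1 by 1.70 in replicate 2 and by 1.31 in replicate 3, the 2 arrays that measured both. For type V, Col5a2 lay above Col5a1 by 0.90, 1.15 and 0.68 on the 3 arrays, and Col5a3 by 1.00, 1.37 and 0.50. For type VI, the difference between Col6a2 and Col6a1 changed sign between arrays (-0.11, 0.21 and 0.31), while Col6a3 lay above Col6a1 by 0.60, 0.23 and 1.49. For type IX, Col9a1 lay above Col9a2 by 0.79, 0.29 and 0.78. In all 8 pairs were compared, and with 3 arrays an exact two-sided sign-flip test cannot go below p = 0.25 (0.5 with 2), so none could pass. Of these pairs only the type V chains had calls in opposite directions, and the call of Col5a1 was lost with median centring and those of Col5a2 and Col5a3 in the authors' deposited value table.

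**Figure D3:**
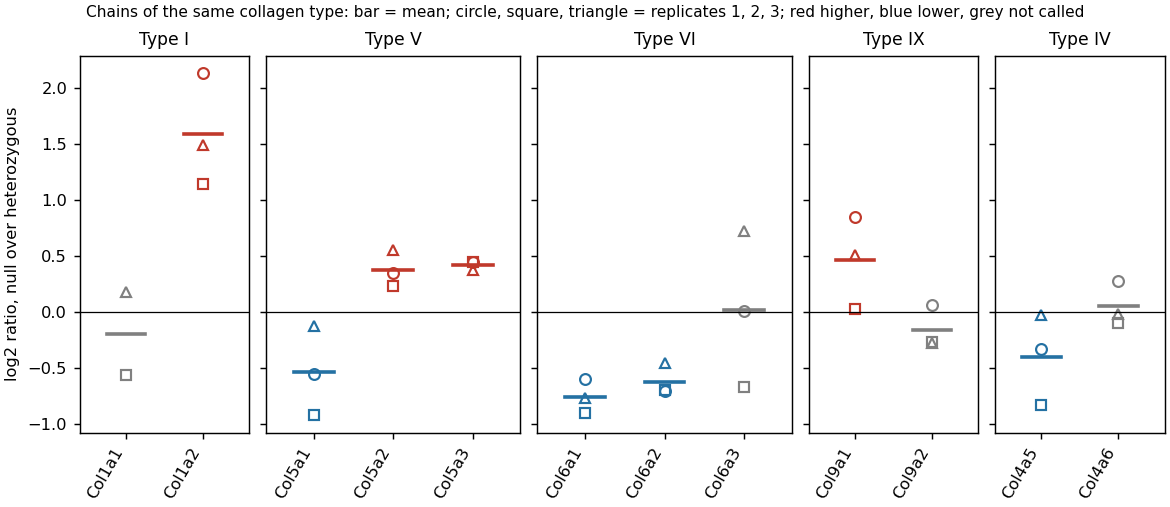
Log2 ratio of null over heterozygous signal (vertical axis) for chains of the same collagen type. Bars are means, and circles, squares and triangles are replicates 1, 2 and 3; red chains rose, blue chains fell, grey chains did not pass. Col5a1 lies below 0 (mean -0.53) and Col5a2 and Col5a3 above it (0.38 and 0.42), and Col6a3 is spread from -0.67 to 0.72 beside Col6a1 and Col6a2, which lie below 0 on each array.

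The genes that modify new collagen chains were mostly lower in the null cells. Of the 12 hydroxylation and glycosylation genes tested, of 13 listed, 1 rose and 9 fell, 4 of them past 2-fold, and the median was -0.70 against 0.0034 over all genes. Plod2, the lysyl hydroxylase that prepares the ends of collagen chains for crosslinking, had ratios of -2.76, -2.86 and -2.17 and a mean of -2.60 (SE 0.13, adjusted p = 1.35e-06), a 6.05-fold fall. The prolyl 4-hydroxylase subunits P4ha1, P4ha2 and P4hb were at -1.85, -1.32 and -0.74 and the prolyl 3-hydroxylase P3h2 at -1.74, all called lower. These 4 were named after their values were seen. Colgalt1, which puts galactose on hydroxylysine, was the only one to rise (0.53, SE 0.08, adjusted p = 0.000669), a call lost in the authors' deposited value table (0.36, adjusted p = 0.093), and P3h1 (0.20) and Plod1 (-0.12) did not pass.

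With loess, the folding and export list showed falls and no rise. All 14 genes were tested, 8 fell, 3 of them past 2-fold, and limma called 0 higher, 0 also at an unadjusted p under 0.05, with a median of -0.49. Serpinh1, the collagen chaperone HSP47, fell by 1.28 (SE 0.11, adjusted p = 1.86e-05), at -1.16, -1.57 and -1.10, which is 2.43-fold. With median centring in place of loess, where all genes tested had a median of 0.23, Serpinh1 was at -0.87 (adjusted p = 4e-04). The counts of this list are given with loess only, so its falls and the absence of a rise may depend on the scaling. Crtap and Ppib, which act with prolyl 3-hydroxylase on the chains, fell by 0.55 and 0.48, and were named after their values were seen. Summed over the list, the log2 signal was 15.7 to 15.9 in the null and 16.1 to 16.4 in the heterozygous channel. The 10 collagen genes that rose, Col1a2 and Col3a1 among them, thus did so in the same RNA in which these lists were lower.

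Genes that act outside the cell went both ways. Of 12 processing and crosslinking genes tested of 15, 5 rose and 2 fell (median 0.086). These are 41.7% and 16.7%, against 30.2% higher and 30.1% lower over all genes tested. Pcolce, the enhancer of the proteinase that trims the C-terminal end of procollagen, rose by 1.34 (SE 0.13, adjusted p = 4.07e-05), with ratios of 1.49, 0.93 and 1.61. Loxl2, a lysyl oxidase that also crosslinks type IV collagen, fell by 1.69 (SE 0.10, adjusted p = 3.04e-06), at -1.53, -1.60 and -1.94.

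**Figure D4:**
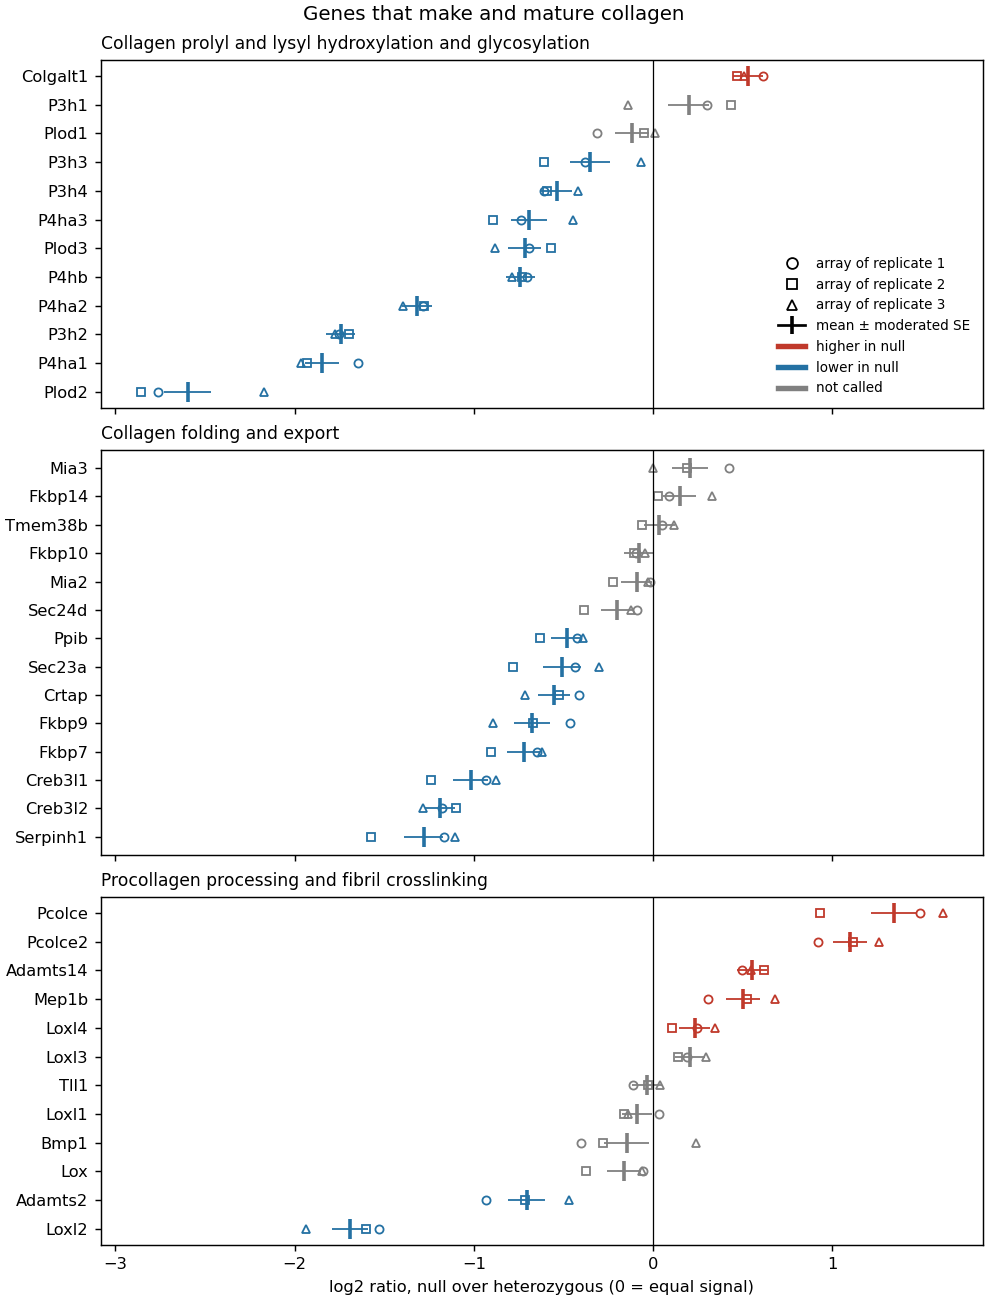
Log2 ratio of null over heterozygous signal (horizontal axis) for the tested genes of 3 lists: chain modification (12 genes), folding and export (14) and processing and crosslinking (12). Symbols are the arrays, ticks the mean with its moderated SE, red genes rose, blue genes fell and grey genes did not pass. Plod2 lies farthest left at -2.60 and Pcolce farthest right at 1.34, and no gene of the folding and export list is red.

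Among proteoglycans and other partners of fibrils, 16 of 22 were tested, 7 rose and 6 fell (median 0.076). These are 43.8% and 37.5%, against 30.2% and 30.1% of all genes tested. Lum, a small leucine-rich proteoglycan that spaces fibrils, rose by 1.17 (SE 0.20, adjusted p = 0.00101), with ratios of 1.62, 0.43 and 1.44. As for Col3a1, replicate 2 was the lowest array. Sparc, which binds collagen in the matrix and during secretion, fell by 1.70 (SE 0.10, adjusted p = 2.46e-06), at -1.72, -1.49 and -1.88. It belongs to the parietal endoderm list as well.

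The collagen receptors Ddr1 and Ddr2 moved in opposite directions. Of 9 receptor genes tested of 11, 3 rose and 2 fell (median 0.092). These are 33.3% and 22.2%, against 30.2% higher and 30.1% lower over all genes tested. Gp6, which rose, entered only through the null channel, with heterozygous signal well above background on 0 arrays. Ddr2, the discoidin domain receptor of mesenchymal cells, which binds fibrillar collagens, had ratios of 2.43, 2.05 and 2.30 and rose by 2.26 (SE 0.10, adjusted p = 6.61e-07), a 4.80-fold difference. Ddr1, the receptor of epithelia, which also binds type IV collagen, fell by 1.11 (SE 0.09, adjusted p = 1.18e-05), at -1.22, -1.10 and -1.01.

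Of the breakdown list, 11 of 16 genes were tested, 3 rose and 3 fell (median 0.018). The rises and falls, 27.3% each, lie near the 30.2% and 30.1% of all genes tested. Mmp9, a gelatinase, rose by 0.73 (SE 0.08, adjusted p = 0.000104), and Ctsl, a lysosomal cathepsin, fell by 1.97 (SE 0.11, adjusted p = 1.76e-06).

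Collagen genes are expressed by different cells, so markers of the cell types that embryoid bodies or their feeders could hold were read on the same arrays. Of the fibroblast and feeder markers, 15 of 17 were tested, 7 rose and 3 fell (median 0.27). These are 46.7% and 20%, against 30.2% higher and 30.1% lower over all genes tested. Prrx1, which rose, entered only through the null channel, with heterozygous signal well above background on 2 arrays. Tcf21, a transcription factor of mesenchymal fibroblast progenitors, rose by 1.26 (SE 0.09) and Pdgfra, a growth factor receptor of mesenchyme, fell by 0.55 (SE 0.10), a call lost with median centring in place of loess (-0.18, adjusted p = 0.285). In replicates 2 and 3 the summed log2 signal of this list was 15.2 and 15.3 in the null and 15.5 and 15.5 in the heterozygous channel. Vim was not measured in replicate 1, where the sum without it was 14.9 in the null and 15.0 in the heterozygous channel. That sum is weighted towards the probes with the highest signal, such as those of Fstl1 and Vim, and can differ in sign from the median. Of the neural crest and mesenchyme markers 10 of 11 were tested, 5 rose and 2 fell (median 0.22). Foxd3, a neural crest factor, was well above background on 0 of the 3 arrays in the heterozygous channel and at least 2.41-fold higher in null (adjusted p = 0.000238), and Snai2 fell by 0.96 (SE 0.12). The summed signal was 13.4 to 13.6 in null and 13.6 to 13.7 in heterozygous, a sum likewise weighted towards probes with high signal such as that of Cdh2. The part of either cell type in the collagen changes was not tested.

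The cartilage and notochord markers were set beside Col2a1, Col27a1 and the type IX and XI chains. Of 13 listed 11 were tested, 5 rose and 3 fell (median 0.034). These are 45.5% and 27.3%, against 30.2% higher and 30.1% lower over all genes tested. Hapln1, a link protein of cartilage matrix, rose by 1.03 (SE 0.12), and Foxa2, a factor of notochord, floor plate and endoderm, fell by 1.54 (SE 0.13). Sox9, Acan, Matn3 and Ucma rose with Hapln1, and Shh and Matn1 fell with Foxa2. Acan and Ucma entered only through the null channel, their heterozygous signal being well above background on 2 arrays each. Col2a1 and Foxa2 were thus lower while the cartilage link protein was higher. The summed signal was 12.6 to 13.1 in the null and 13.5 to 13.7 in the heterozygous channel. That sum is weighted towards Foxa2, the probe with the highest signal of the list (mean log2 intensity 12.3). It does not follow the median of 0.034. The part of cartilage or notochord cells in the fall of Col2a1 was not tested.

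Parietal endoderm is an extraembryonic layer that secretes much basement membrane. All 15 genes listed as its markers were tested, and not all of them are particular to this layer. Of these 12 fell, 9 of them past 2-fold, with a median of -1.52. With loess, limma called 0 higher, 0 also at an unadjusted p under 0.05. Thbd (0.066), Fst (0.043) and Stra6 (-0.12) did not pass. Srgn, a proteoglycan of secretory granules, fell by 4.98 on the log2 scale, the largest fall of the list (SE 0.10, adjusted p = 1.07e-07). The summed signal was 16.2 to 16.3 in the null and 17.9 to 18.0 in the heterozygous channel. The part of this layer in the falls of Col18a1, Col4a5 and the modification and folding genes was not tested. Endothelial markers went the other way, with 9 of 11 higher and 1 lower (median 0.73). Plvap, of fenestrated endothelium, rose by 1.49 (SE 0.10). Vwf, the clotting factor of endothelial cells, was the one called lower at -0.40 (SE 0.12), a call lost without replicate 2 (-0.23, adjusted p = 0.135) and with median centring (-0.049, adjusted p = 0.82). Their summed signal was 15.1 to 15.3 in null and 14.7 in heterozygous.

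Col7a1, a collagen of the epidermal junction, was higher, while most genes of the epidermis and basal epithelium list were not. Of 14 tested, 2 rose and 9 fell (median -0.32). Krt14, a keratin of basal epidermis, rose by 0.60 (SE 0.10), and Itgb4, the hemidesmosome integrin chain, fell by 1.58 (SE 0.09). Their summed signal was 15.3 to 15.4 in the null and 16.4 to 16.6 in the heterozygous channel. That sum is weighted towards Krt18, the probe with the highest signal of the list (mean log2 intensity 15.1), which fell by 1.45. Among the other keratins listed, Krt8 fell by 0.84, Krt15 fell by 0.26 and Krt5 did not pass (-0.0078). The transcription factor gene Trp63 fell by 0.38. Krt8 and Krt18 are not particular to epidermis, so their falls and the summed signal are not a reading of epidermis.

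The calls differed in how far they held under other ways of processing. Over 13 settings, which leave out reading replicate 3 as labelled and the ordinary t statistic of each probe, 11 of the 21 calls were kept in every setting in which the gene was tested. The 5 that rose were Col14a1, Col1a2, Col26a1, Col3a1 and Col7a1, and the 6 that fell were Col20a1, Col2a1, Col8a2, Col6a1, Col6a2 and Col27a1. The size of several of these moved with the setting. With median centring Col2a1, Col6a1 and Col6a2 were at -0.46, -0.35 and -0.40 and Col3a1 at 1.23, and with the scanner's processed signals Col14a1, Col20a1, Col8a2 and Col27a1 were at 2.87, -2.52, -1.24 and -1.01. Without sharing of spread between probes (the ordinary t statistic), 3 collagen genes were called higher and 5 lower. Among the calls listed above, Col14a1, Col1a2, Col3a1 and Col7a1 did not pass there (adjusted p = 0.0601, 0.0817, 0.227 and 0.076). Col6a1 and Col6a2 did not pass there either (adjusted p = 0.0562 and 0.0601). The authors' deposited value table, tested with limma and spread shared between probes, gave 5 higher and 8 lower.

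**Figure D5:**
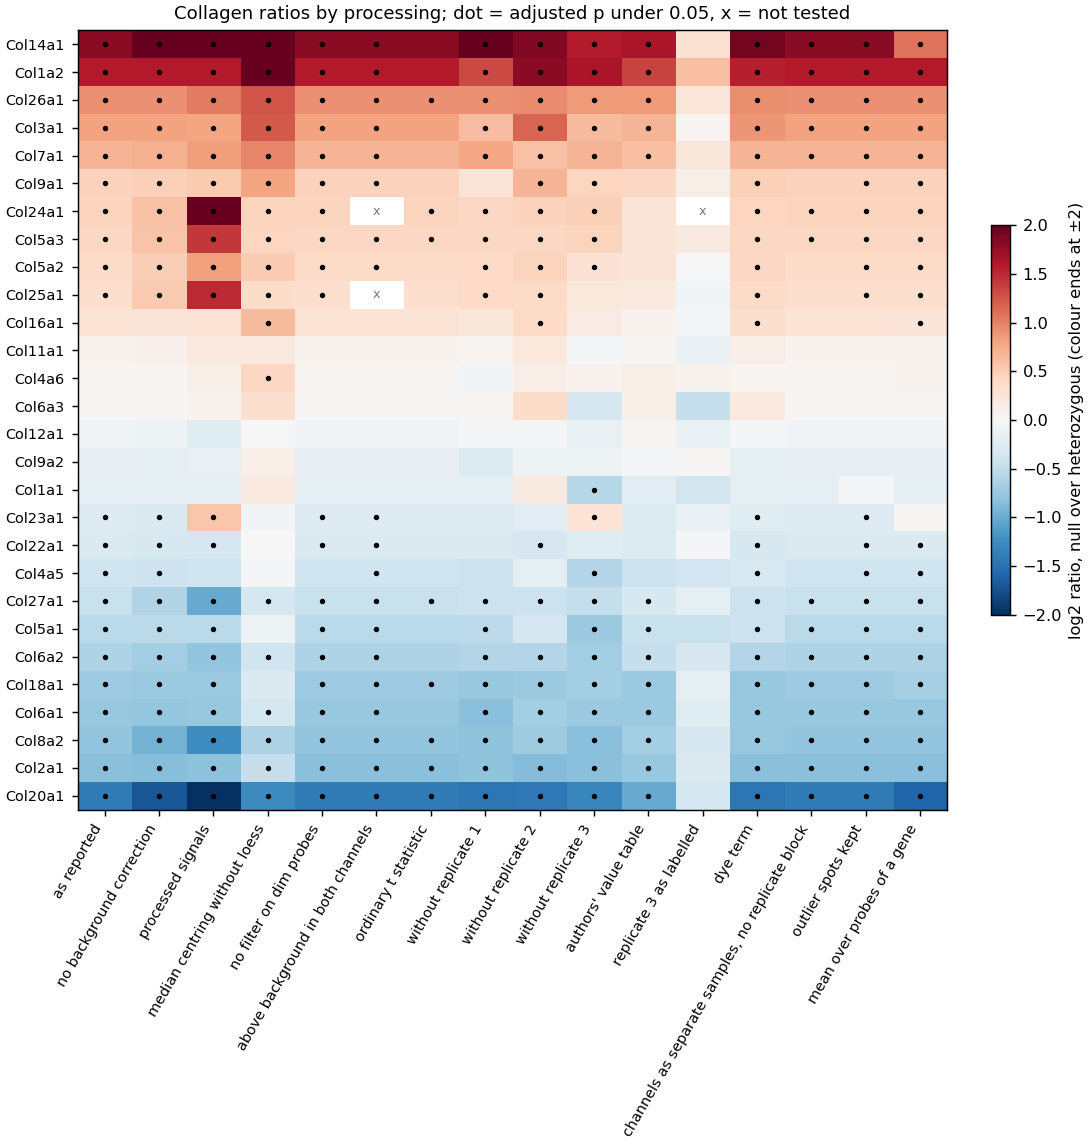
Log2 ratio of null over heterozygous signal (colour, red higher, blue lower, ending at ±2) of the 28 collagen genes (rows) under each way of processing (columns). A dot marks an adjusted p under 0.05 and an x a gene that was not tested there. The column with replicate 3 as labelled holds no dot, that of the ordinary t statistic holds 8, and Col23a1 is red in the columns of the scanner's processed signals (0.56) and without replicate 3 (0.28).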

How the data were processed

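The authors deposited spot intensity values of both channels with backgrounds and flags. Per the file headers they came from Feature Extraction 11.5.1.1, and the submitters' processing notes name Agilent Feature Extraction 8.5.1.1. The authors' deposited value table was read as log2 ratios, because against bright scanner spots it had slopes of 0.946, 0.953 and -0.948. Its centring is not known, and its column medians were -0.10, -0.11 and 0.07. The deposited log10 ratio column of the scanner was left aside. The arrays shared 1 slide and 1 scan. Between 61.9% and 72.9% of spots were well above background, and precision is limited by there being 3 arrays.

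With limma 3.58.1 in R 4.3.3, foreground medians were corrected by normexp (offset 50) and ratios normalized by loess within each array, control and outlier spots having weight 0. Outlier spots were left out and spots of a probe averaged. Replicate 3 was turned, so 2 arrays have the dyes in one orientation and 1 in the other, which leaves part of any dye effect. Probes well above background on all 3 arrays in either channel, and measured on at least 2, were kept (24553 of 39429). lmFit and eBayes tested each probe's mean ratio against 0, and every SE is moderated. A gene took its brightest kept probe. Channel signals were scaled by Aquantile, and a bound ("at least") sets the dim channel at the lowest signal well above background or its own, if higher, and is open to dye bias. Accessions were named through a RefSeq table (GRCm38.p6), which named 28025 probes. The test was tried on simulated ratios. The array design is on another build per the file headers, so the only coordinates given are those of the RefSeq promoter windows.

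Members, classes and lists were chosen with earlier results of these data known. Array values are given for each called collagen gene with a log2 ratio of at least 1 in size and for the leading member of each class, and for lists the called gene with the largest rise and that with the largest fall. The alternatives were other background corrections, scalings, filters, variances, probe rules and dye handling, the authors' table, each array left out and, chosen after seeing the data, outlier spots kept.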

Additional observations from a re-analysis of the deposited data

How the results depend on the processing

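Against 10 collagen genes higher and 11 lower with a median of -0.025, median centring without loess gave 6 lower and a median of 0.19, where all genes had 0.23. The ordinary t statistic gave 3 higher and 5 lower, and the values deposited by the authors gave 5 higher. With replicate 3 as labelled 0 were higher and 0 lower (0 and 0 also at an unadjusted p under 0.05, limma). Leaving out each replicate in turn gave 9 to 11 higher, 8 to 10 lower and medians from -0.072 to 0.15, the highest without replicate 2. Without replicate 2 or 3 the genes tested still include Col1a1, then measured on a single array, and a call counted for it there is no test. Every other setting kept both counts within 1.5 times. Each array pairs both genotypes, so the reported test is already paired; treating channels as unpaired samples (no replicate block), 7 were higher and 8 lower. Direction reversed for Col23a1 with processed signals (0.56), without replicate 3 (0.28, against -0.25 without replicate 1) and as the mean over its probes (0.062), because the probe taken as brightest changes or both enter the mean, and for Col25a1 with replicate 3 as labelled (-0.052). Keeping outlier spots changed no collagen call. Members near background, Col24a1, Col25a1 and Col5a3 among them, are limited by signal.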

Other observations

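Replicate 2 was the lowest of the 3 arrays for 16 of the 27 collagen genes measured on all, replicate 1 for 5 and replicate 3 for 6. Over all 19623 genes measured on every array, replicate 2 was the lowest for 32.0%. The medians of the collagen genes were 0.061, -0.20 and 0.14 on the 3 arrays, and those of the fibrillar class 0.34, -0.059 and 0.34. Dcn, a small leucine-rich proteoglycan that binds type I collagen and was picked after its values were seen, had 1.45, 0.28 and 1.42, the same order of high and low arrays as Col3a1 (1.18, 0.081 and 1.15) and Lum (1.62, 0.43 and 1.44), whereas Ddr2 at 2.43, 2.05 and 2.30 and Tcf21 at 1.31, 1.09 and 1.39 differed less between arrays. In replicate 2 the summed log2 signal of the fibroblast and feeder markers was 15.2 in the null and 15.5 in the heterozygous channel. In replicate 3 it was 15.3 and 15.5. The sum of replicate 1 lacks Vim and cannot be set beside these. The part of these cells in this pattern was not tested.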
